A study of Mus musculus with 2 samples.

Results

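The subunits and assembly factors of the respiratory chain, encoded partly in the nucleus and partly in mitochondrial DNA, were described in leukocytes of house dust mite-treated mouse skin, in a receptor-deficient and a wild-type library. Members were all genes whose symbol began with Nduf, Sdh, Uqcr, Cox4, Cox5, Cox6, Cox7, Cox8, Atp5 or mt-, which gave 109 of the 27998 genes listed, 96 of them nuclear and 13 mitochondrial. Of these, 106 had 50 or more UMIs (unique molecular identifiers, which count captured RNA molecules) over both libraries and were kept, 93 nuclear and 13 mitochondrial. Just inside that minimum lay Cox4i2 with 133 UMIs. Outside it lay Cox8b with 11 UMIs, and Cox7b2 and Cox8c with 0.

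Live CD45+ cells, which carry the surface protein of leukocytes, were sorted from digested dorsal neck skin and measured by droplet single-cell RNA sequencing. IL31RAKO was 1 library from C57Bl/6 mice labelled as lacking the IL-31 receptor alpha chain, and WT was 1 library from wild-type C57Bl/6 mice; each pooled 4 animals, whose ages the labels did not give. Both had received Biostir ointment with house dust mite (D. farinae) on shaved back skin for 3 weeks, with 2 applications a week, and the skin was treated with 2% SDS before each, so that no untreated skin entered the comparison. With 1 library per genotype no test between genotypes was possible, and every difference below is between these libraries. Il31ra, the targeted gene, had 26 UMIs in IL31RAKO cells and 11 UMIs in WT cells. Which part of the gene was deleted is not given in the sources used here, so this count could not check the labels, and IL31RAKO and WT below name the libraries so labelled.

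Oxidative phosphorylation runs in the inner mitochondrial membrane. Complexes I (NADH dehydrogenase) and II (succinate dehydrogenase) pass electrons from NADH and succinate to ubiquinone, complex III (the cytochrome bc1 complex) passes them to cytochrome c, and complex IV (cytochrome c oxidase) passes them to oxygen. The proton gradient built up by complexes I, III and IV drives ATP synthase. Resting lymphocytes and many tissue macrophages are known to rely on this route, while neutrophils are known for few mitochondria and for relying on glycolysis. The kept members held 36 subunits of complex I, 4 of complex II, 8 of complex III, 17 of complex IV, 15 of ATP synthase, 2 genes named for ATP synthase whose products are not core subunits (Atp5s, Atp5sl) and 11 assembly factors, beside 7, 1, 3 and 2 mitochondrial subunits of complexes I, III, IV and ATP synthase.

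The nuclear promoters were read from RefSeq windows (GRCm38.p6) that ran from 250 bases before to 50 bases after a start site, and 77 of the 96 nuclear members had one. The motif of nuclear respiratory factor 1 (NRF1), searched on both strands as GCGCA, any 1 base and GCGC, lay in 27.3% of these members and in 5.19% of the 27025 genes with a window. The core of ETS factors such as GABPA, CCGGAAG, lay in 26.0% of members and 9.93% of all genes, and AAGATGGC, the core of YY1, in 11.7% and 3.19%. At least 1 of the 3 was present in 43 members, 55.8%, against 16.4% of all genes; no test was made of the difference, and a match is a run of letters and not a measured binding site. Cox6b1 and Cox6b2, which encode alternative forms of 1 complex IV subunit and had different cell-type patterns, are shown whole, and stretches around the matches are shown for Cox6a1, Uqcrh, Sdhb and Sdhaf4. Capitals mark motif matches, written 5′ to 3′ on the strand of the gene.
Cox6b1, chr7:30626065-30626364, minus strand: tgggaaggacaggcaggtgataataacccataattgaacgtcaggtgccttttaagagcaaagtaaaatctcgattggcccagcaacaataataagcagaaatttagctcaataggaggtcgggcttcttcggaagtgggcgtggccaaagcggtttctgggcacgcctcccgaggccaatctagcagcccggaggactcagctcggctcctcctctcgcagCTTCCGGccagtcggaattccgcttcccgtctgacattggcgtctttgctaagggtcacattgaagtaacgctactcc
Cox6b2, chr7:4753045-4753344, minus strand: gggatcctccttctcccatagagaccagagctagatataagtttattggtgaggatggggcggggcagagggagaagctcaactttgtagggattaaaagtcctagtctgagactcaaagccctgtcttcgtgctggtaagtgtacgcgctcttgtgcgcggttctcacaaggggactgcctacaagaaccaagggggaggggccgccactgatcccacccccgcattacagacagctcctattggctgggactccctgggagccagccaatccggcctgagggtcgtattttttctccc
Cox6a1, chr5:115348950-115349135, minus strand: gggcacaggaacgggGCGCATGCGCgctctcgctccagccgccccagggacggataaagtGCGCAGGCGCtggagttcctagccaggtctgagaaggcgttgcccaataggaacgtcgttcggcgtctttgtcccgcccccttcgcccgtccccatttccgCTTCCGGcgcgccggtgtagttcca
Uqcrh, chr4:116075056-116075095, minus strand: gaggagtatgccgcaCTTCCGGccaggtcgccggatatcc
Sdhb, chr4:140961262-140961301, plus strand: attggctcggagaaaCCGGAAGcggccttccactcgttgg
Sdhaf4, chr1:24005608-24005647, minus strand: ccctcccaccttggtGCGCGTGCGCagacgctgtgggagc
The Cox6b1 window held 1 ETS core and the Cox6b2 window held none of the 3 motifs. The members plotted or named below for their cell-type patterns had no common content: the windows of Ndufc2, Ndufb11 and Atp5b held none of the 3, those of Sdhaf1 and Atp5e held the ETS core, that of Ndufa6 held the NRF1 motif and that of Atp5k held both.

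The libraries held 71333292 UMIs (IL31RAKO) and 57000499 UMIs (WT). Barcodes with at least 500 UMIs, 250 genes and under 10% of UMIs from mt- genes left 14619 IL31RAKO and 11934 WT cells, with medians of 3181 and 2918 UMIs. The mitochondrial limit alone took 9.59% of the IL31RAKO and 13.5% of the WT barcodes that passed the others. The libraries shared 247 kept barcodes, where 237 would be shared at random. Of the 26553 cells, 81.3% could be assigned to 1 cell type from its marker genes, and each such gate is called "like" that type; the names were rebuilt here from markers, not taken from the study. The T cell markers that chose T-like cells made up a median 0.603% of UMIs in IL31RAKO and 0.595% in WT T-like cells, a level fixed by that choice. This gate held 4476 IL31RAKO and 5477 WT cells, 30.6% and 45.9% of the kept cells of their libraries. The macrophage-like gate followed with 2806 and 1586 cells, cDC2-like (type 2 conventional dendritic cells) with 1435 and 1079, and neutrophil-like with 1214 and 295. Levels are UMIs of a gene summed over a gate, per 1000000 UMIs of that gate (CPM). Each ratio divides IL31RAKO by WT, and its exact 95% interval covers counting error only, not the spread between mice or pools.

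Nuclear members together took 2.77% of the UMIs of IL31RAKO cells and 2.81% of those of WT cells, and the mitochondrial genes took 2.58% and 2.92%. The nuclear set was thus nearly equal in size between genotypes, with a ratio of 0.986 (0.984 to 0.989), and the mitochondrial set was lower in IL31RAKO at 0.885 (0.883 to 0.887). The direction of the nuclear value depended on scaling: it was 1.06 after median-of-ratios scaling, which shifted all log2 ratios by 0.10. The libraries also differed in which cells they held. With WT levels weighted by the IL31RAKO make-up of gates, the mitochondrial set would stand at 28068 CPM, against 25821 CPM in IL31RAKO and 29184 CPM in WT. Composition alone therefore gave a ratio of 0.962, and a ratio of 0.920 was left over the same composition.

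The levels spread widely over cell types. The nuclear set was lowest in basophil-like cells, at 15681 CPM in IL31RAKO and 17167 CPM in WT, and in neutrophil-like cells, at 18124 and 19685 CPM. Among gates of 100 or more cells in each library it was highest in macrophage-like cells in IL31RAKO (30519 CPM, against 29819 CPM in WT) and in dermal gamma-delta T-like cells in WT (27638 CPM in IL31RAKO and 29948 CPM in WT). Keratinocyte-like cells, the surface cells of skin that had passed the sort in small number, stood higher still, at 38593 CPM in 59 IL31RAKO cells and 36961 CPM in 108 WT cells. T-like cells lay between, at 26879 and 27549.7 CPM. The mitochondrial set had another order among the named gates of 100 or more cells, led by Cd8 T-like cells at 31440.2 and 33028 CPM. T-like cells of no named subset were not ranked. Their median mitochondrial share was 3.18% and 3.23%, against 3.08% and 3.17% in Cd8 T-like cells. T-like cells as a whole had 30633 and 31681 CPM, and macrophage-like cells had 27263 and 27881 CPM. Lower still were cDC2-like cells at 22754 and 26566 CPM and neutrophil-like cells at 13752 and 15561 CPM. Mitochondrial over nuclear UMIs were accordingly 1.14 in IL31RAKO and 1.15 in WT T-like cells, 0.893 and 0.935 in macrophage-like cells, and 0.759 and 0.790 in neutrophil-like cells. These values moved with processing. Over the alternatives they ran from 1.00 to 1.34 and 1.01 to 1.33 in T-like cells. The ranges were 0.799 to 1.01 and 0.820 to 1.03 in macrophage-like cells, and 0.608 to 1.08 and 0.593 to 1.08 in neutrophil-like cells. Free RNA, read from barcodes of 10 to 50 UMIs, held 28391 and 29023 CPM of the nuclear set and 35559.8 and 34677 CPM of the mitochondrial set. Both were above the levels of neutrophil-like and basophil-like cells in both libraries. The nuclear value was also above that of T-like cells in both libraries. The mitochondrial value was above even that of Cd8 T-like cells, the highest of the gates ranked.

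**Figure D1:**
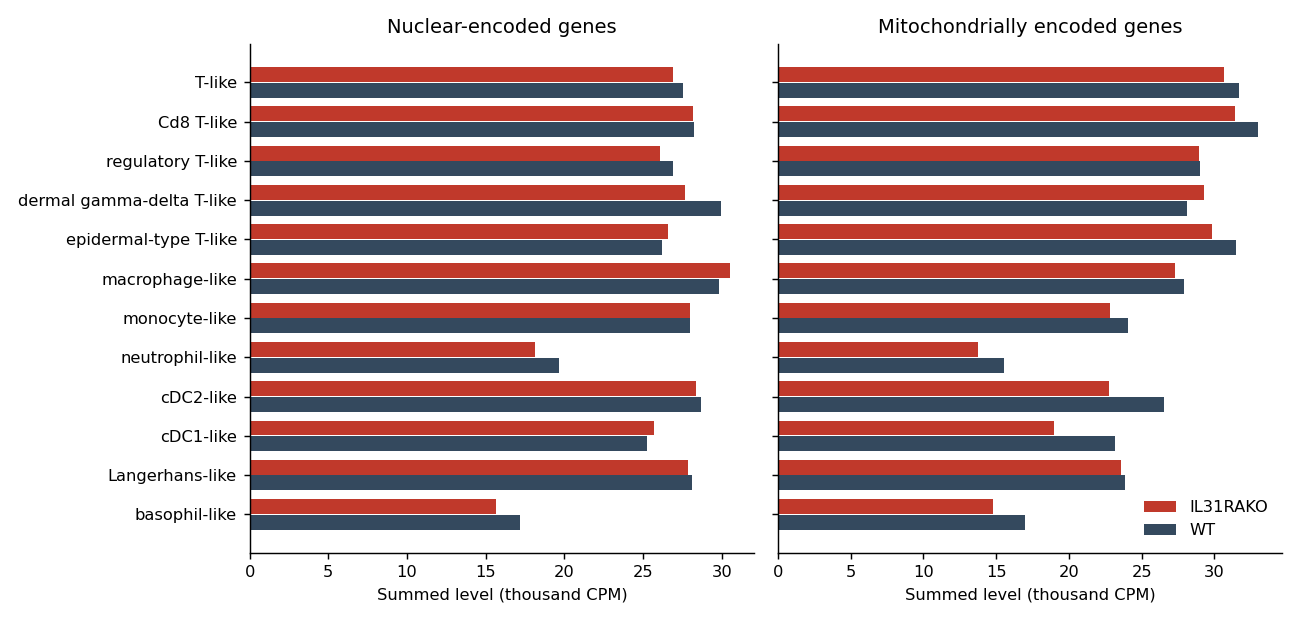
Summed level of the 96 nuclear (left) and 13 mitochondrial (right) genes in units of 1000 CPM, by marker gate, with IL31RAKO in red above WT in dark blue. Bars are 1 library each, with no error between libraries; Cd8, regulatory, dermal gamma-delta and epidermal-type T-like cells are parts of the T-like gate. Basophil-like and neutrophil-like cells are lowest for the nuclear set (15681 to 19685 CPM), and Cd8 T-like cells stand at 31440.2 and 33028 CPM of the mitochondrial set.

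Within cell types the nuclear set stayed close to 1. Ratios in the 11 gates that share no cell were 0.913 (0.883 to 0.945) in basophil-like, 0.921 (0.898 to 0.944) in neutrophil-like and 0.923 (0.907 to 0.939) in dermal gamma-delta T-like cells at the low end, and 1.02 (1.02 to 1.03) in macrophage-like cells at the high end. The basophil-like gate had 159 IL31RAKO and 100 WT cells, and its ratio became 1.00 after median-of-ratios scaling, which shifted its log2 ratios by 0.13. cDC2-like cells, at 0.988, also came to 1.00 under that scaling and in cells of 4000 to 8000 UMIs. 

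Few nuclear members were at least 25% higher or 20% lower in IL31RAKO, which was taken as the threshold of a call, in the well-filled gates. In T-like cells 0 of 91 measured nuclear members were higher and 5 were lower in IL31RAKO, where 8.64% and 12.1% of all genes with 50 or more UMIs passed. In macrophage-like cells 2 of 90 were higher and 1 was lower, beside 12.8% and 9.68% of all genes. In cDC2-like cells 0 of 89 were higher and 2 lower, beside 6.75% and 11.3%. In cDC1-like cells (type 1 conventional dendritic cells) 2 of 85 were higher and 0 lower, beside 15% and 11.8%. Monocyte-like cells had 1 higher and 5 lower of 87, beside 12.6% and 14.9%, and Langerhans-like cells 1 and 3 of 88, beside 15% and 11.7%. Cd8 T-like cells had 0 and 3 of 87, beside 8.73% and 12%, regulatory T-like cells 2 and 2 of 86, beside 11.5% and 11.8%, and epidermal-type T-like cells 1 and 5 of 86, beside 9.22% and 16.1%. Over all kept cells 0 of 93 were higher and 4 lower, beside 10.8% and 20.3%. Of the nuclear members 88 had 1000 or more UMIs over both libraries, while the genes of the background run down to 50 UMIs, where counting error is larger.

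The small gates had more members past the threshold. Neutrophil-like cells had 5 higher and 15 lower of 77 nuclear members, beside 15.5% and 27.9% of all genes. Basophil-like cells had 3 higher and 16 lower of 69, beside 15.1% and 22.3%. Dermal gamma-delta T-like cells had 1 higher and 10 lower of 83, beside 16.5% and 24.2%. In the basophil-like gate the share of lower members, 23.2%, was near that of all genes.

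**Figure D2:**
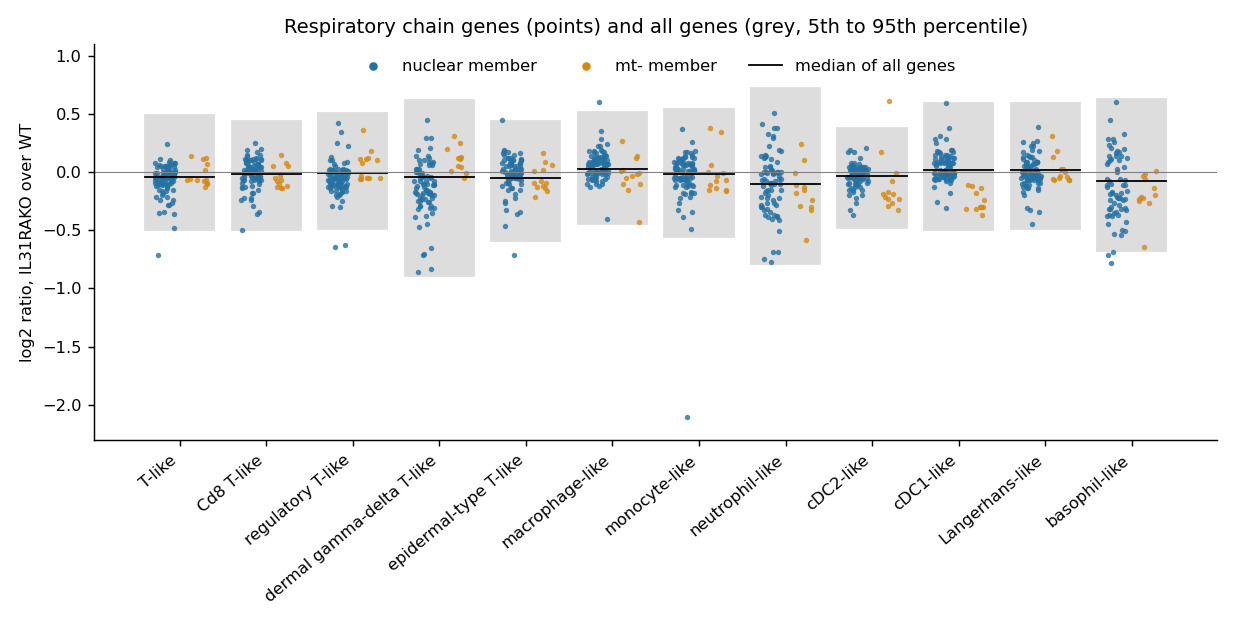
log2 ratio of IL31RAKO over WT for each member with 50 or more UMIs in a gate (blue, nuclear; orange, mt-), beside the 5th to 95th percentile of all genes of the gate (grey) and their median (black line). Nuclear members lie close to 0 in T-like, macrophage-like and cDC2-like cells, the orange points of cDC1-like cells all lie below 0, and Cox6a2 in monocyte-like cells is the lowest point at -2.10.

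Complex I takes electrons from NADH. Its 36 nuclear subunits summed to 7631 CPM in IL31RAKO and 8039.5 CPM in WT T-like cells, a ratio of 0.949 (0.942 to 0.957), and 30 of the 36 were lower, none of them past the threshold. Their median log2 ratio was -0.07, beside -0.04 for all genes of the gate. In macrophage-like cells the sum was 8648 and 8444 CPM, a ratio of 1.02 (1.01 to 1.04), and 24 of the 36 were higher, again none past the threshold, with a median of 0.04 beside 0.03 for all genes. Ndufa2, an accessory subunit and the one with most UMIs, had 467 and 492 CPM in T-like cells and 728 and 695 CPM in macrophage-like cells. Ndufb10, an accessory subunit of the membrane arm, was chosen after its values were seen. It was lower in IL31RAKO in all 11 non-overlapping gates, with ratios from 0.770 in basophil-like to 0.985 in macrophage-like cells. Its interval lay below 1 in 2 of them and held 1 in the others. The share of all genes lower in as many gates was not taken, here or for the gate counts of other members below.

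Some complex I subunits marked cell types in both libraries. Ndufc2, a membrane-arm subunit (chromosome 7, 97400003 to 97407802, mm10), had 536 CPM in IL31RAKO and 518 CPM in WT macrophage-like cells, 456 and 497 CPM in Langerhans-like cells and 213 and 232 CPM in T-like cells. Ndufb11, also a membrane-arm subunit and X-linked, had 478 and 480 CPM in cDC1-like cells, and between 144 and 321 CPM in the other 10 non-overlapping gates. Ndufa6, a subunit of the LYR family, had 745 and 725 CPM in cDC2-like, 706 and 682 CPM in cDC1-like and 650 and 640 CPM in Langerhans-like cells, against 373 and 386 CPM in T-like cells. These patterns were seen in both libraries, and their genotype ratios stayed between 0.917 and 1.04 in the gates named. The rule that named Ndufc2 and Ndufb11 by their span asked for the same order in both libraries. That likeness was therefore part of the choice and no separate support. Ndufaf6, an assembly factor chosen after its values were seen, had 27.2 and 25.5 CPM in cDC1-like cells and at most 11 CPM in each other gate of the comparison.

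**Figure D3:**
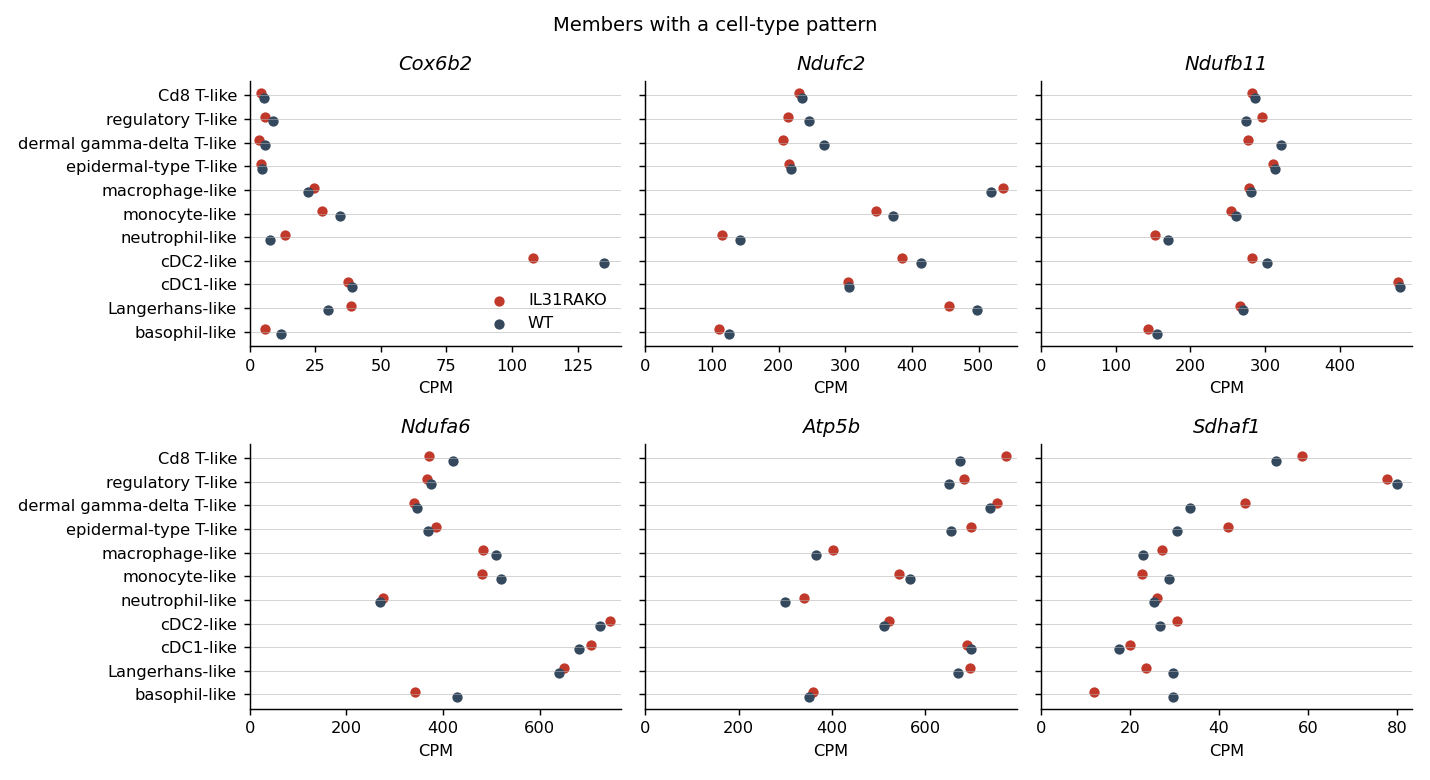
CPM of 6 members (Cox6b2, Ndufc2, Ndufb11, Ndufa6, Atp5b, Sdhaf1) in the 11 gates that share no cell, IL31RAKO in red and WT in dark blue; each panel has its own axis, starting at 0. Cox6b2 is highest in cDC2-like cells (108 and 135 CPM), Ndufb11 in cDC1-like cells (478 and 480 CPM) and Ndufc2 in macrophage-like cells (536 and 518 CPM).

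Ndufa1 is an X-linked accessory subunit (chromosome X, 37187588 to 37191163, mm10). Dermal gamma-delta T-like cells gave 197 of its UMIs in 122 IL31RAKO cells and 1413 UMIs in 424 WT cells, that is 361 and 585 CPM, a ratio of 0.616 (0.528 to 0.716). Cells with 5 or more UMIs of it made up 6.56% of IL31RAKO and 20% of WT cells, whose median depths were 3714 and 4346 UMIs. The top cell held 9 UMIs in IL31RAKO and 41 UMIs in WT, and without these cells the ratio was 0.612. Over all T-like cells the ratio was 0.825. T-like cells of no named subset were also past the threshold, at 336 and 455 CPM, a ratio of 0.738, while Ndufa1 had 352 and 354 CPM in regulatory T-like, 351 and 368 CPM in epidermal-type T-like and 390 and 455 CPM in Cd8 T-like cells. Free RNA held 263 and 225 CPM of it. Cycling moved with genotype in this gate: 9.84% of IL31RAKO and 29.7% of WT cells carried 3 or more cycling genes. Ndufa1 stood at 355 CPM in IL31RAKO and 647 CPM in WT cells that were not cycling, and at 383 CPM in 12 IL31RAKO and 518 CPM in 126 WT cycling cells; the part of cycling in the difference was not tested. Ndufv1, the flavin-binding core subunit, had 56.8 and 103 CPM there, a ratio of 0.553 (0.368 to 0.805) from 31 and 248 UMIs, below its free RNA level (84.2 and 80.7 CPM) in IL31RAKO cells. In cells of 4000 to 8000 UMIs the Ndufv1 ratio was 0.928, no longer past the threshold.

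Other complex I members named by the same rule rested on fewer UMIs. Ndufs8, an iron-sulphur core subunit, was higher in IL31RAKO cDC1-like cells, at 145 and 112 CPM, a ratio of 1.30 (1.09 to 1.56), beside 111 and 106 CPM in free RNA. In cDC1-like cells of 4000 to 8000 UMIs that ratio was 1.06, no longer past the threshold. Ndufa5, an accessory subunit, had 118 and 150 CPM in epidermal-type T-like cells, a ratio of 0.790 (0.695 to 0.898), which the mean over cells put at 0.824. Ndufa12, another accessory subunit, had 79.0 CPM from 145 UMIs in IL31RAKO and 134 CPM from 53 UMIs in WT neutrophil-like cells, below its free RNA levels of 221 and 161 CPM.

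Complex II is the one complex with no mitochondrially encoded subunit; it also belongs to the tricarboxylic acid cycle. Its 4 genes summed to 473 CPM in IL31RAKO and 421 CPM in WT macrophage-like cells, a ratio of 1.12 (1.06 to 1.19), and all 4 were higher. The median ratio of the 4213 genes used for median-of-ratios scaling in this gate was 1.02. Sdha, the flavin-binding subunit that oxidises succinate, had 85.9 and 73.8 CPM there, a ratio of 1.16, and Sdhb, the iron-sulphur subunit, had 182 and 165 CPM, a ratio of 1.1. In Cd8 T-like cells the sum was 511 and 464 CPM, a ratio of 1.1 (1.04 to 1.17), with Sdhb at 244 and 206 CPM. In T-like cells as a whole it was 477 and 468 CPM, 1.02 (0.988 to 1.05). Free RNA held 516 and 467 CPM of these 4 genes, above the macrophage-like and Cd8 T-like sums in both libraries. The part of free RNA in these ratios was not tested. Sdhd, a membrane anchor, had 80.2 and 89.4 CPM in T-like cells and 142 and 139 CPM in Langerhans-like cells. None of the 4 passed the threshold in T-like, Cd8 T-like or macrophage-like cells.

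Complex III had 8 nuclear members whose sum was even between genotypes in T-like cells, at 2977 and 2988 CPM, and in macrophage-like cells, at 3527 and 3466 CPM. Uqcrh, the hinge protein that holds cytochrome c1, had the lower level in IL31RAKO in 10 of the 11 non-overlapping gates, with an interval below 1 in 7 of them. Its levels were 1033 and 1108 CPM in macrophage-like, 860 and 973 CPM in monocyte-like and 620 and 713 CPM in Langerhans-like cells. The exception was epidermal-type T-like cells, at 849 and 779 CPM. Uqcrb, which helps to form the ubiquinone site, went the other way in macrophage-like cells, at 626 and 580 CPM, a ratio of 1.08, and in monocyte-like cells, at 536 and 474 CPM, a ratio of 1.13. Uqcrc2, a core protein, differed mainly by cell type, with 131 and 125 CPM in T-like and 77.7 and 72.2 CPM in macrophage-like cells.

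Complex IV hands electrons to oxygen. Its nuclear subunits summed to 7949 CPM in IL31RAKO and 8144 CPM in WT T-like cells, a ratio of 0.976 (0.969 to 0.984), and to 9391 and 9145 CPM in macrophage-like cells, a ratio of 1.03 (1.01 to 1.04). Dermal gamma-delta T-like cells had sums of 8375 and 9219 CPM, a ratio of 0.908 (0.880 to 0.938). Cox4i1, the common form of the regulatory subunit 4, had 1188 and 1194 CPM in T-like, 1684 and 1727 CPM in macrophage-like and 1382 and 1556 CPM in Langerhans-like cells. Ndufa4, a subunit now placed in complex IV despite its name, had 542 and 600 CPM in T-like cells, a ratio of 0.904, and 482 and 426 CPM in macrophage-like cells, a ratio of 1.13. The widely used forms Cox6a1, Cox7a2, Cox7a2l and Cox8a were near even in T-like cells, with ratios of 0.975, 0.976, 0.997 and 1.00; Cox8a, for one, had 818 and 815 CPM.

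Cox6b2 is the form of subunit 6B known from testis. In cDC2-like cells it had 1077 UMIs in IL31RAKO and 873 UMIs in WT, that is 108 and 135 CPM, a ratio of 0.798 (0.729 to 0.873), with at most 8 and 12 UMIs in 1 cell. A stricter gate put the ratio at 0.833, short of the threshold. Its level was 37.6 and 39.2 CPM in cDC1-like, 38.8 and 29.7 CPM in Langerhans-like, 27.5 and 34.5 CPM in monocyte-like, 24.6 and 22.3 CPM in macrophage-like and 5.28 and 6.41 CPM in T-like cells. Per 1000 UMIs of the nuclear set, cDC2-like cells held 3.80 and 4.71 UMIs, 5.06 and 6.80 times the median of the 11 gates. Free RNA held 26.3 and 46.7 CPM, below the cDC2-like level and above the T-like one. The gene of the common form, Cox6b1, was spread over all gates, highest in macrophage-like cells at 1017 and 975 CPM and lowest in basophil-like cells at 460 and 535 CPM.

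Further isoforms known from muscle or from low oxygen were rare. Cox6a2, the heart and muscle form of subunit 6A, had 103 and 90 UMIs in all. In monocyte-like cells it had 29 UMIs in 7 of 853 IL31RAKO cells and 52 UMIs in 6 of 370 WT cells, that is 6.76 and 28.9 CPM, a ratio of 0.234 (0.143 to 0.375), but up to 14 and 18 UMIs came from 1 cell, and a stricter gate gave 0.371. Cells with 3 or more Cox6a2 UMIs numbered 5 in IL31RAKO and 7 in WT, and 3 and 6 of them held Siglech, a gene of plasmacytoid dendritic cells picked after the values were seen. Among cells without Cox6a2, 0.811% and 0.781% held Siglech. A further 44 IL31RAKO and 14 WT macrophage-like cells held 1 Cox6a2 UMI each. Cox7a1, the heart and muscle form of subunit 7A, had 16.7 and 17.8 CPM in Langerhans-like cells, the highest of the 11 gates, and 14.1 and 11.1 CPM in macrophage-like cells.

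Ndufa4l2, a gene known to be induced at low oxygen, had its highest levels outside the leukocyte gates. It had 274 CPM in 95 IL31RAKO and 525 CPM in 81 WT fibroblast-like cells, and 207 and 180 CPM in keratinocyte-like cells, against 1.60 and 2.23 CPM in T-like cells. Single keratinocyte-like cells held up to 57 and 91 UMIs of it, so the levels of that gate rest on few cells. Cox4i2, the lung form of subunit 4, had 17 UMIs in IL31RAKO and 40 UMIs in WT fibroblast-like cells, and 29 of the WT UMIs lay in 1 cell. Among leukocytes it was found in Langerhans-like cells, with 10 UMIs in 10 IL31RAKO cells and 22 UMIs in 20 WT cells, that is 3.80 and 6.21 CPM. Cox8b, the muscle form of subunit 8, had 7 and 4 UMIs in all.

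ATP synthase uses the proton gradient. Its 15 members summed to 7529 CPM in IL31RAKO and 7570.4 CPM in WT T-like cells, a ratio of 0.994 (0.987 to 1.00), and to 8231 and 8108 CPM in macrophage-like cells, a ratio of 1.02 (1.00 to 1.03). Atp5b, the catalytic beta subunit, had 713 and 659 CPM in T-like cells, a ratio of 1.08 (1.05 to 1.11), and 772 and 674 CPM in Cd8 T-like cells, a ratio of 1.15. Atp5l, the membrane subunit g and the ATP synthase gene with most UMIs, was lower in IL31RAKO in 10 of the 11 non-overlapping gates, with an interval below 1 in 4. It had 1013 and 1281 CPM in neutrophil-like cells, a ratio of 0.791 (0.716 to 0.874), and 584 and 758 CPM in basophil-like cells, a ratio of 0.771 (0.649 to 0.915). The basophil-like value reversed to 1.11 when each cell was thinned to 1000 UMIs, the neutrophil-like value moved to 0.831 after median-of-ratios scaling, and free RNA held 1068 and 1083 CPM of it. Atp5k and Atp5e, small subunits, were highest in macrophage-like cells, at 485 and 434 CPM and at 1050.1 and 1098 CPM, and lowest in basophil-like cells, at 159 and 184 CPM and at 478 and 446 CPM. The 3 genes of the ring subunit c encode the same mature protein: in T-like cells Atp5g1 had 304 and 299 CPM, Atp5g2 had 445 and 431 CPM and Atp5g3 had 256 and 266 CPM.

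Assembly factors are not part of the finished complexes. In T-like cells the 11 genes summed to 295 CPM in IL31RAKO and 316 CPM in WT, a ratio of 0.933 (0.897 to 0.971). Of the 11, 9 were lower, 3 of them past the threshold, beside 12.1% of all genes lower past it. The median ratio of the 7974 genes used for median-of-ratios scaling in this gate was 0.976. Sdhaf4, a chaperone of the flavin subunit of complex II, had 34.5 and 43.6 CPM, a ratio of 0.792 (0.706 to 0.887). Ndufaf2, a late complex I factor, had 26.0 and 33.2 CPM, a ratio of 0.784 (0.687 to 0.894), and Sdhaf3, an iron-sulphur factor of complex II, had 12 and 15.3 CPM, a ratio of 0.780 (0.641 to 0.947). The other lower T-like members past the threshold were Ndufa4l2 and Atp5s, the last with 3.06 and 5.02 CPM from 44 and 90 UMIs. Atp5sl had 18.6 and 19.3 CPM. All 3 factors lay below their free RNA levels in both libraries, which were 47.4 and 102 CPM for Sdhaf4, 26.3 and 34.0 CPM for Ndufaf2 and 21.1 and 21.2 CPM for Sdhaf3. Each call could be lost: the Sdhaf4 ratio was 0.892 after free RNA subtraction, and thinning each cell to 1000 UMIs put Ndufaf2 at 0.897 and Sdhaf3 at 0.803. Thinning moved the Atp5s ratio to 0.378. Within Cd8 T-like cells Sdhaf4 had 29.4 and 41.7 CPM and Ndufaf3, a complex I factor, had 44.7 and 56.7 CPM, a ratio of 0.788 (0.649 to 0.955) that became 0.874 in cells of 4000 to 8000 UMIs. In regulatory T-like cells Ndufaf3 had 51.7 and 38.7 CPM, a ratio of 1.34 (1.04 to 1.72), which thinning moved to 2.28. These levels lay below those of free RNA, which held 57.9 CPM in IL31RAKO and 42.5 CPM in WT. In the same gate Ndufaf2 had 17.1 and 26.6 CPM and Ndufaf5, another complex I factor, 11.8 and 18.4 CPM, beside 31.6 and 8.5 CPM of Ndufaf5 in free RNA.

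Sdhaf1, an iron-sulphur factor of complex II, followed T cell subsets. It had 77.9 CPM in IL31RAKO and 80.1 CPM in WT regulatory T-like cells, 58.8 and 52.8 CPM in Cd8 T-like cells and 27.2 and 23.0 CPM in macrophage-like cells. Per 1000 UMIs of the nuclear set it stood at 2.75 and 2.66 times the median gate in regulatory T-like cells. Between genotypes it was higher in IL31RAKO epidermal-type T-like cells, at 42.1 and 30.7 CPM, a ratio of 1.37 (1.07 to 1.76), beside 42.1 and 59.5 CPM in free RNA. In cells of 4000 to 8000 UMIs that ratio was 1.02, no longer past the threshold. Sdhaf3 was lower in epidermal-type T-like cells, at 11.1 and 18.3 CPM from 37 and 76 UMIs, below free RNA at 21.1 and 21.2 CPM, and its ratio there became 0.816 in cells of 4000 to 8000 UMIs.

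Macrophage-like and T-like cells differed in the levels of many nuclear genes, in both libraries. Of 90 members measured in both, 44 were higher in macrophage-like cells in both libraries and 40 were lower in both. Of the 90, 20 higher and 25 lower passed the threshold in both libraries. The share of all genes past it between these gates was not taken. The counts are therefore not shown to be particular to the respiratory chain. When members were grouped after their values were seen, 5 of the 7 core subunits of complex I and 4 of the 5 F1 subunits of ATP synthase were lower in macrophage-like cells, with median macrophage over T ratios of 0.765 in IL31RAKO and 0.784 in WT for the core and 0.772 and 0.765 for F1. Of 14 complex IV subunits 11 were higher, with medians of 1.15 and 1.11. Atp5b stood at 0.564 and 0.555 of the T-like level, Uqcrc2 at 0.595 and 0.579 and Ndufv1 at 0.613 and 0.566. In the other direction Ndufc2 was at 2.52 and 2.23, Atp5e, the 1 F1 subunit that was higher, at 1.62 and 1.68, Atp5l at 1.65 and 1.59 and Cox4i1 at 1.42 and 1.45. In neutrophil-like cells Cox6a1 and Cox8a, complex IV subunits, took 1.55 and 1.74 and 1.58 and 1.56 times the median gate's share of the nuclear set.

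The 13 mitochondrial genes, transcribed from mitochondrial DNA, had ratios that spread more than those of the nuclear set. The summed ratio was 0.818 (0.808 to 0.829) in cDC1-like, 0.857 (0.851 to 0.862) in cDC2-like, 0.870 (0.840 to 0.901) in basophil-like and 0.884 (0.859 to 0.909) in neutrophil-like cells. It lay between 0.947 and 0.996 in Cd8, regulatory and epidermal-type T-like, macrophage-like, monocyte-like and Langerhans-like cells, and it was 1.04 (1.02 to 1.06) in dermal gamma-delta T-like cells. That last value turned to 0.988 with a 5% mitochondrial limit and to 0.915 in cells of 4000 to 8000 UMIs, and the Langerhans-like ratio of 0.987 turned to 1.02 without doublets. In the 4 gates with ratios under 0.9 the nuclear set stood at 1.02, 0.988, 0.913 and 0.921, so that in the dendritic gates the mitochondrial genes stood apart from the nuclear ones.

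In cDC2-like cells 11 of 13 mitochondrial genes had a ratio below 1. Only 1 was lower past the threshold, beside 11.3% of all genes. The share of all genes with any ratio below 1 is not given here. The median ratio of the 5180 genes used for median-of-ratios scaling in this gate was 0.985. The gene mt-Atp6, the proton channel subunit of ATP synthase, had 4662 CPM in IL31RAKO and 5719 CPM in WT, a ratio of 0.815 (0.804 to 0.826). Beside it mt-Co3, a structural subunit of complex IV, had 4578 and 5502 CPM, 0.832 (0.821 to 0.844), and mt-Cytb, the cytochrome b of complex III, had 1688 and 1985 CPM, 0.85 (0.831 to 0.870). The complex I gene mt-Nd1, a subunit at the ubiquinone site of complex I, was less apart, at 2206 and 2327 CPM, 0.948 (0.929 to 0.968). Subunits 1 and 2 of complex IV gave like values, with mt-Co1 at 4285 and 4898 CPM and mt-Co2 at 2725 and 3197 CPM, and among complex I genes mt-Nd4 had 1145 and 1324 CPM and mt-Nd3 had 188 and 214 CPM. The genes that were higher were mt-Nd4l, at 158 and 140 CPM, and mt-Nd6, the one gene on the other strand, at 14.4 and 9.44 CPM from 144 and 61 UMIs, a ratio of 1.53 (1.12 to 2.09), beside 21.1 and 4.25 CPM of mt-Nd6 in free RNA. In cDC1-like cells all 12 measured mitochondrial genes had a ratio below 1, where the median ratio of the 1668 genes used for scaling was 1.01. Among them were mt-Co3 at 3858 and 4989 CPM, 0.773 (0.752 to 0.796), and mt-Atp6 at 4161 and 5199 CPM, 0.80 (0.779 to 0.823). Both were past the threshold, as were 11.8% of all genes lower in this gate. In cDC1-like cells of 4000 to 8000 UMIs these ratios were 0.927 for mt-Co3 and 0.931 for mt-Atp6.

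Mitochondrial levels were also read at matched cell depth. IL31RAKO and WT cDC2-like cells had medians of 6819 and 5594 UMIs, and 5.85% and 10.3% of them held 5% or more mitochondrial UMIs. Shallow cells had higher mitochondrial levels in both libraries, and below 4000 UMIs the genotypes were even: 48714 and 47956 CPM in cells of 500 to 2000 UMIs, and 38419 and 37153 CPM in cells of 2000 to 4000 UMIs. At 4000 to 8000 UMIs, which held 712 and 532 cells, the levels were 22783 and 26579 CPM, a ratio of 0.857, equal to that of the whole gate, and at 8000 to 16000 UMIs they were 20403 and 22648 CPM, a ratio of 0.901. In cDC1-like cells the ratio was 0.957 at 4000 to 8000 UMIs from 52 and 29 cells, and 0.804 at 8000 to 16000 UMIs. A list of 10 genes known to respond to tissue dissociation summed to 5413 and 5906 CPM in cDC2-like cells, a ratio of 0.916 (0.904 to 0.929), and to 5852 and 6990.1 CPM in macrophage-like cells, 0.837 (0.825 to 0.849), where the mitochondrial ratio was 0.978. The part of dissociation in the mitochondrial values was not tested.

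**Figure D4:**
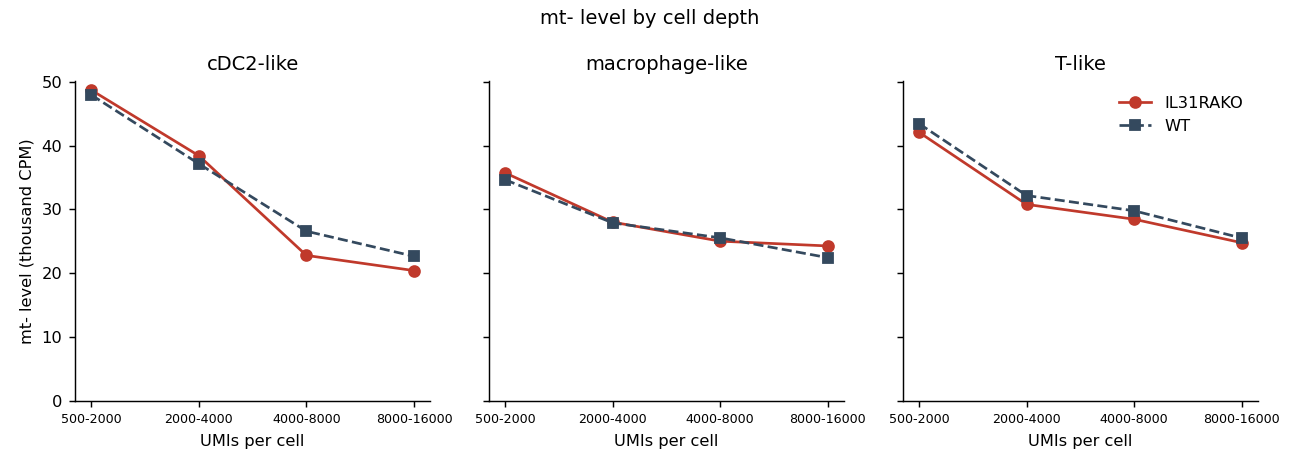
Summed level of the 13 mitochondrial genes in units of 1000 CPM (y axis, from 0) in cells binned by UMIs per cell (x axis), for cDC2-like, macrophage-like and T-like cells; IL31RAKO is the red solid line and WT the dark dashed line. cDC2-like lines part above 4000 UMIs (22783 against 26579 CPM), while macrophage-like lines stay together up to 8000 UMIs.

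The 13 genes did not share 1 ratio within a gate. The gene mt-Atp6 was lower in IL31RAKO in 11 of 11 non-overlapping gates, from 0.80 in cDC1-like to 0.977 in macrophage-like cells, and mt-Co3 and mt-Co2 were lower in 10 of 11. By contrast mt-Nd1 was higher in 7 of 11, mt-Nd4l in 8 of 11 and mt-Nd6 in 6 of the 7 gates where it had 50 UMIs. In T-like cells mt-Nd1 had 3089.9 CPM in IL31RAKO and 2944 CPM in WT, a ratio of 1.05 (1.04 to 1.06), beside mt-Atp6 at 6720.4 and 7212 CPM, 0.932 (0.924 to 0.940). The genes mt-Nd4l and mt-Nd5, complex I subunits, had 143 and 130 CPM and 289 and 268 CPM there. The other 9 genes lay from 0.915 for mt-Nd2 to 1.09 for mt-Nd6.

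In macrophage-like cells mt-Atp8, the small second ATP synthase subunit, stood apart. It had 3335 UMIs in IL31RAKO and 2157 UMIs in WT, that is 362 and 487 CPM, a ratio of 0.743 (0.704 to 0.785), with at most 10 UMIs in 1 cell of either library and 132 and 115 CPM in free RNA. Its neighbour mt-Atp6, with which it shares 43 bases on the same strand, was at 0.977 (0.962 to 0.992), and mt-Nd1 was at 1.08 (1.06 to 1.11). In cDC2-like cells mt-Atp8 had 287 and 360 CPM, 0.798 (0.755 to 0.843), which a stricter gate put at 0.840, and in T-like cells 275 and 289 CPM, 0.955. Reads that fall on such shared bases, or on the 7 bases that mt-Nd4l and mt-Nd4 share, cannot be told apart. The genes mt-Nd5 and mt-Nd6 share 14 bases on opposite strands. Whether the counts of mt-Atp8 and mt-Atp6, or of mt-Nd4l and mt-Nd4, come from separate RNAs was not tested. Their ratios are therefore not read as separate RNA levels. In monocyte-like cells mt-Nd4l had 158 and 125 CPM, 1.26 (1.08 to 1.47), which thinning put at 1.17, beside 105 and 29.7 CPM in free RNA. In basophil-like cells mt-Nd5 had 112 and 175 CPM from 56 and 59 UMIs, 0.641 (0.437 to 0.940), levels below those of free RNA (305 and 310 CPM), and thinning put that ratio at 0.347.

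**Figure D5:**
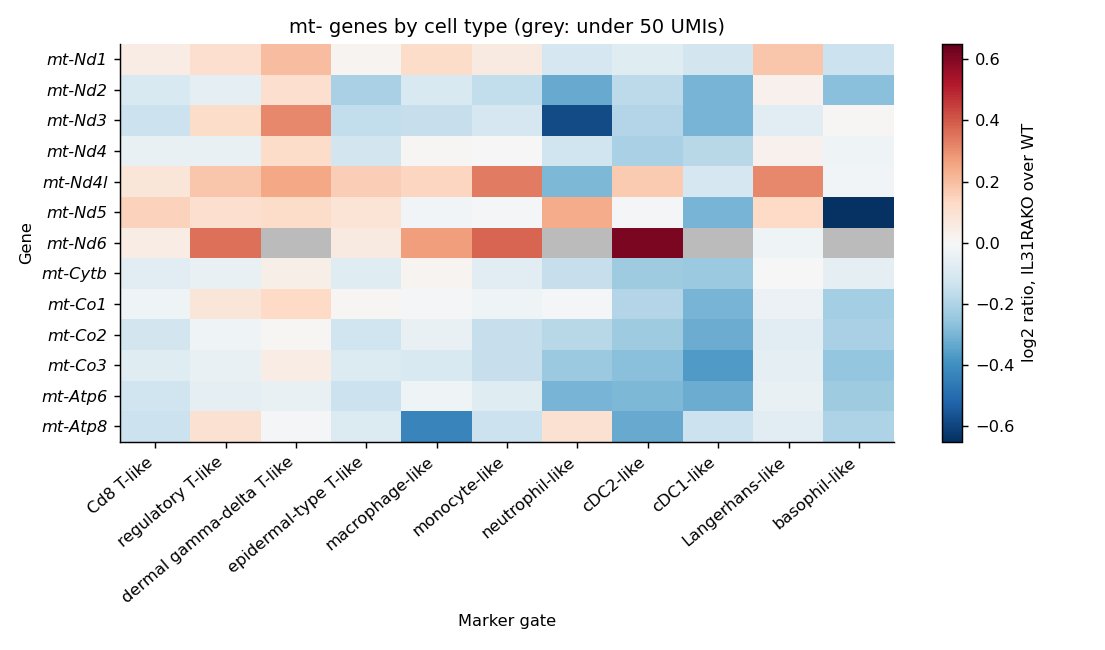
log2 ratio of IL31RAKO over WT for the 13 mitochondrial genes (rows) in the 11 gates that share no cell (columns); blue is lower and red higher in IL31RAKO, and grey has under 50 UMIs. The mt-Atp6 row is blue throughout, the cDC1-like column is blue in all 12 measured genes, and mt-Nd6 in cDC2-like cells is the strongest red.

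Other genes of the pathway were read beside the members in T-like, macrophage-like, cDC2-like and cDC1-like cells. The 30 electron carriers and complex III and IV factors that are no members summed to 2185 CPM in IL31RAKO and 2252 CPM in WT T-like cells, with 0 higher and 2 lower past the threshold. Beside this and the other T-like counts of this paragraph, 8.64% of all T-like genes were higher and 12.1% lower past it. The mitochondrial ribosome, which translates the 13 mitochondrial messages, summed to 5158 and 5491 CPM in T-like cells, a ratio of 0.939 (0.93 to 0.948), with 1 higher and 1 lower of 76. In cDC1-like cells it had a ratio of 1.04 (1.02 to 1.07), with 9 higher and 0 lower of 73, beside 15% and 11.8% of all genes. The 11 enzymes of the tricarboxylic acid cycle were at 628 and 557 CPM in macrophage-like cells, a ratio of 1.13 (1.08 to 1.18). Of these 3 were higher and 0 lower, beside 12.8% and 9.68% of all genes of that gate. In T-like cells the enzymes were at 943 and 928 CPM, with none past the threshold.

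Glycolysis genes differed from the respiratory chain in T-like cells. The 12 genes summed to 6906 CPM in IL31RAKO and 5810.2 CPM in WT, a ratio of 1.19 (1.18 to 1.20), beside 0.976 for the nuclear respiratory set. Gapdh had 1697 and 1359.6 CPM, Eno1 had 733 and 592 CPM and Pgk1 had 181 and 145 CPM, while Hk2, the first kinase of the path, had 21.1 and 22.1 CPM. Of the 12, 1 passed the threshold, beside 8.64% of all genes higher and 12.1% lower. In macrophage-like cells the sum was 2925 and 3044 CPM, a ratio of 0.961 (0.941 to 0.981), with Hk2 at 53.3 and 77.8 CPM. Among 10 regulators, Hif1a, whose protein is the oxygen-dependent factor that drives glycolytic genes, had 196 and 141 CPM of RNA in T-like cells, a ratio of 1.40 (1.32 to 1.47). In macrophage-like cells it had 90.4 and 56.4 CPM, a ratio of 1.60 (1.39 to 1.85). Of all genes, 8.64% in T-like and 12.8% in macrophage-like cells were also higher past the threshold. How many of the 10 regulators passed it is not given here. Nrf1 had 29.2 and 29.8 CPM and Gabpa 22.2 and 24.5 CPM in T-like cells, both with intervals that held 1. The T-like gates differed in make-up, with 1128 and 754 regulatory and 122 and 424 dermal gamma-delta T-like cells. The part of this in the T-like glycolysis and Hif1a ratios was not tested.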

How the data were processed

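Raw UMI counts per gene and barcode were deposited by the authors as 1 matrix per library, with no filter on cells; the submitters' processing notes name Cell Ranger 3.1, Seurat 3.2.2 and the mm10 build without their roles, and the labels give version 2 chemistry that tags 3′ ends. Counts at 3′ ends were not used to compare levels between genes. Barcodes with at least 500 UMIs, 250 genes and under 10% mt- UMIs were kept. A cell entered a gate when at least 3 different markers of its list were detected, their summed share reached 0.5 of the mean over all cells and stood at least 2 times above that of any other list; cells matching more lists stayed ungated, and doublets were otherwise left in. These limits were set after the files were seen, on markers alone. Counts were summed per gate and library, scaled to CPM, and compared as IL31RAKO over WT with exact conditional binomial 95% intervals, which cover counting error only. No test was possible with 1 library per genotype.

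Members, gene lists and groupings were chosen with earlier results of these data known. Named were the mt- genes and tissue-dependent isoforms. Past the threshold, up to 10 members in T-like and macrophage-like cells and up to 2 in other gates were named in each direction, by the interval bound nearest 1. Per complex the member with most UMIs was named, with the 2 of widest span across gates, in the same order in both libraries. Gates under 100 cells in either library entered no genotype comparison. Alternatives changed the mitochondrial limit, UMI minimum, doublets (Scrublet in scanpy 1.11.5), gates, scaling, thinning, weighting of cells and free RNA. Python 3.11.15, numpy 2.4.6, scipy 1.17.1 and pandas 2.3.3 were used, and the interval code was tested on simulated data.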

Additional observations from a re-analysis of the deposited data

Results flagged for a closer look

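Among members with 50 or more UMIs in both gates, 11 had an interval below 1 in T-like cells and above 1 in macrophage-like cells, and 2 of these stood at least 25% apart. The share of all genes with such opposite intervals was not taken. The count is therefore not shown to be particular to the respiratory chain. Ndufab1, the acyl carrier protein that is also a complex I subunit, had ratios of 1.12 in macrophage-like and 0.881 in T-like cells, which differ by 0.35 on the log2 scale. Ndufa4, a complex IV subunit, had 1.13 in macrophage-like and 0.904 in T-like cells, which differ by 0.32. Ndufab1 and Ndufa4 were brought out because the 2 cell types moved in opposite directions. Among T-like subsets Ndufa4 had 0.979 (0.925 to 1.04) in Cd8, 0.942 (0.879 to 1.01) in regulatory and 0.941 (0.884 to 1.00) in epidermal-type cells. Its ratio was 0.808 (0.721 to 0.905) in the dermal gamma-delta subset, which held 122 IL31RAKO and 424 WT cells. Ndufab1 had 0.943, 0.897, 0.859 and 0.996 in these subsets, in the same order. The part of subset make-up in the T-like ratios was not tested. With 1 library per genotype the difference between cell types was not tested.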

How the results depend on the processing

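With 1 library per genotype, depth limits only the counting error, and the spread between animals is unknown. No paired analysis was possible because each genotype has 1 library. Ratios (IL31RAKO over WT) and counts of members past the threshold, mt- genes included, moved as follows; the cause of these moves was not tested. A 5% mitochondrial limit gave mitochondrial ratios of 0.905 in all cells, 0.972 in T-like, 0.995 in macrophage-like, 0.869 in cDC2-like and 0.853 in cDC1-like cells, reversed the dermal gamma-delta T-like value to 0.988, and gave a nuclear ratio of 0.982 in all cells. A 20% limit gave 0.865 (mitochondrial) and 0.991 (nuclear) in all cells and reversed the Langerhans-like mitochondrial ratio to 1.00. No limit gave mitochondrial ratios of 0.854 in all, 0.963 in T-like, 0.996 in macrophage-like, 0.862 in cDC2-like and 0.808 in cDC1-like cells, and 0.992 for the nuclear set. Doublet removal took 11.7% of IL31RAKO and 9.54% of WT cells; it gave mitochondrial ratios of 0.89 in all and 0.978 in T-like cells and reversed Langerhans-like cells to 1.02. Stricter gates gave 0.985 in macrophage-like, 0.877 in cDC2-like and 0.838 in cDC1-like cells. CPM of nuclear-gene UMIs gave 0.882 (mitochondrial) and 0.983 (nuclear) in all cells. Median-of-ratios scaling reversed the nuclear ratio to 1.06 in all, 1.00 in basophil-like and 1.00 in cDC2-like cells and gave 1.000 in T-like and 1.01 in macrophage-like cells. Its mitochondrial ratios were 0.947 in all, 0.991 in T-like, 0.963 in macrophage-like and 0.870 in cDC2-like cells, with 2 members lower in all and 3 in T-like cells. Thinning left out 1439 IL31RAKO and 1300 WT cells; it gave mitochondrial ratios of 0.879 in all, 0.960 in T-like, 0.965 in macrophage-like and 0.802 in cDC1-like cells, a nuclear ratio of 0.984, 2 members higher and 2 lower in all and in T-like cells, 4 higher and 1 lower in macrophage-like cells, and reversed Atp5l in basophil-like cells to 1.11. Means over cells gave mitochondrial ratios of 0.882 in all, 0.973 in T-like, 0.967 in macrophage-like and 0.846 in cDC2-like cells, nuclear ratios of 0.983 in all and 0.970 in T-like cells, and 1 member higher in all and 1 in macrophage-like cells. Free RNA subtraction gave 0.866 in all, 0.961 in T-like, 0.971 in macrophage-like, 0.831 in cDC2-like and 0.782 in cDC1-like cells, with 2 members higher in T-like cells. A minimum of 200 UMIs left 3 members lower in T-like cells and 0 higher and 1 lower in macrophage-like cells; 1 or more UMIs in each library gave 1 higher in all cells and 4 lower in macrophage-like cells. Alternatives added after seeing the data left out cycling cells or kept cells of 4000 to 8000 UMIs. Without cycling cells the mitochondrial ratios were 0.88 in all and 0.959 in T-like cells and the nuclear ones 0.991 and 0.981. Cells of 4000 to 8000 UMIs gave mitochondrial ratios of 0.893 in all, 0.955 in T-like and 0.957 in cDC1-like cells, reversed dermal gamma-delta T-like cells to 0.915, and gave nuclear ratios of 0.998 in all and 0.971 in T-like cells, reversed to 1.00 in cDC2-like cells, with 1 member higher in T-like and 6 in macrophage-like cells. Among ratios of single named genes, 324 values stayed within their counting interval, 22 moved beyond it and 1 reversed. The sets left their counting intervals more often, but those intervals were narrower, so that a smaller shift counted as a move. These counts therefore do not compare the size of the shifts. For mitochondrial ratios in all, T-like, macrophage-like, cDC2-like and cDC1-like cells, 39 values moved and 26 stayed. For nuclear ratios in all, T-like and macrophage-like cells, 13 moved, 1 reversed and 25 stayed. Of mitochondrial over nuclear values, 230 moved and 104 stayed.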

Other observations

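Genes that copy and express mitochondrial DNA summed to 230 CPM in IL31RAKO and 264 CPM in WT T-like cells, a ratio of 0.871 (0.833 to 0.911). Of 10 measured, 0 were higher and 2 lower, beside 8.64% and 12.1% of all genes of the gate. In cDC1-like cells they had 259 and 227 CPM, a ratio of 1.14 (1.01 to 1.30), with 2 higher and 0 lower of 5, too few to set beside the 15% of all genes that were higher there. Metabolite carriers and pores of the mitochondrial membranes had 2919 and 2956 CPM in T-like and 2498 and 2476 CPM in macrophage-like cells, with none of 9 past the threshold in either. Small ATP synthase subunits and the inhibitor, which are named apart from the members, had 1053 and 1099 CPM in T-like cells, with none of 6 past it.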
